A study of Mus musculus with 12 samples.

Results

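Pan-lysine-crotonylation (pan-Kcr) peaks were examined at 10 genes that neurons and other cells switch on quickly after stimulation and whose products feed back on signalling or respond to stress. They are Dusp1, Dusp5, Dusp6, Ier2, Ier5, Btg2, Sik1, Gadd45b, Gadd45g and Klf4, taken as a named list from 21887 protein-coding genes. All 10 were found in the RefSeq gene table of GRCm38, and the peaks counted for each lay in the gene body or within 10 kb of its ends. The assay was ChIP-seq, which sequences the DNA of antibody-bound chromatin, on dorsal hippocampus of C57BL/6J mice. Mice of the learning library were trained in spatial object recognition, a task on the location of objects, and mice of the homecage library stayed in their home cage. Both libraries used the same antibody against crotonylated lysine, and chromatin was sheared to fragments of 200 to 500 bp. Age, sex and the number of animals behind each library are not given in the sources used here. With 1 library per condition, nothing here has a replicate check or a p-value between conditions, and every value describes these 2 lists.

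Immediate-early genes are transcribed within minutes of synaptic activity without new protein synthesis. Many encode transcription factors, while several of the genes described here encode brakes. Dual-specificity phosphatases (Dusp genes) dephosphorylate and switch off mitogen-activated protein kinases, Sik1 restrains the coactivators of CREB, and Btg2 promotes removal of the poly(A) tails of mRNAs. Gadd45 proteins are stress sensors that bind kinases and have been linked to DNA demethylation in active neurons. Lysine crotonylation is an acyl mark of histones that is associated with active promoters and is written in part by the acetyltransferase p300. The antibody detects crotonylated lysine at any position, so a peak does not tell which histone or lysine carries the mark.

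The learning list held 16002 peaks on the assembled chromosomes and the homecage list 331236, which is 20.7 times as many. The files give the position and width of each peak but no strength or read number, so the depth is unknown and its part in this difference was not tested. Learning peaks had a median width of 306 bp and homecage peaks one of 351 bp. As a look at the labelled tissue, 6 of 10 hippocampal neuron marker genes had a learning peak in the same kind of window (exact 95% interval 26.2 to 87.8%) and 2 of 10 marker genes of other tissues (2.52 to 55.6%). Both intervals include the 35.4% of all protein-coding genes, and they overlap. The neuron markers are longer, with a median of 17549 bp against 5715 bp. Among genes up to 12665 bp the counts were 3 of 5 (14.7 to 94.7%) and 1 of 8 (0.316 to 52.7%). Both of these intervals include the 23.8% of all protein-coding genes up to that length. All genes of both marker lists had a homecage peak, as did 93.8% of all protein-coding genes, so presence in that list does not separate them.

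A learning peak was present at 4 of the 10 genes, Dusp1, Dusp6, Ier2 and Ier5, with 1 peak each. Among all protein-coding genes, 35.4% had a learning peak in such a window, and among the 9205 protein-coding genes no longer than the longest gene of the list (Dusp5, 12665 bp) the share was 23.8%. The 40% found here has an exact 95% binomial interval of 12.2 to 73.8%, which includes both shares. A homecage peak was present at all 10 genes, where the share was 93.8% of all protein-coding genes and 90.6% of those up to that length. The 10 genes had 45 homecage peaks in all, from 2 at Sik1 and Gadd45g to 10 at Dusp6. Both lists together thus had peaks at 4 genes, the homecage list alone at 6 and the learning list alone at none. Among all protein-coding genes these shares were 35.3%, 58.5% and 0.0914%. Among those up to that length they were 23.6%, 67% and 0.185%, so the split at the 10 genes does not stand apart. Over the windows, homecage peaks were 11.2 times as many as learning peaks. This ratio rests on 4 learning peaks, and no interval was computed for it. It was 11.2 at all protein-coding genes up to that length and 15.9 at all protein-coding genes.

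**Figure D1:**
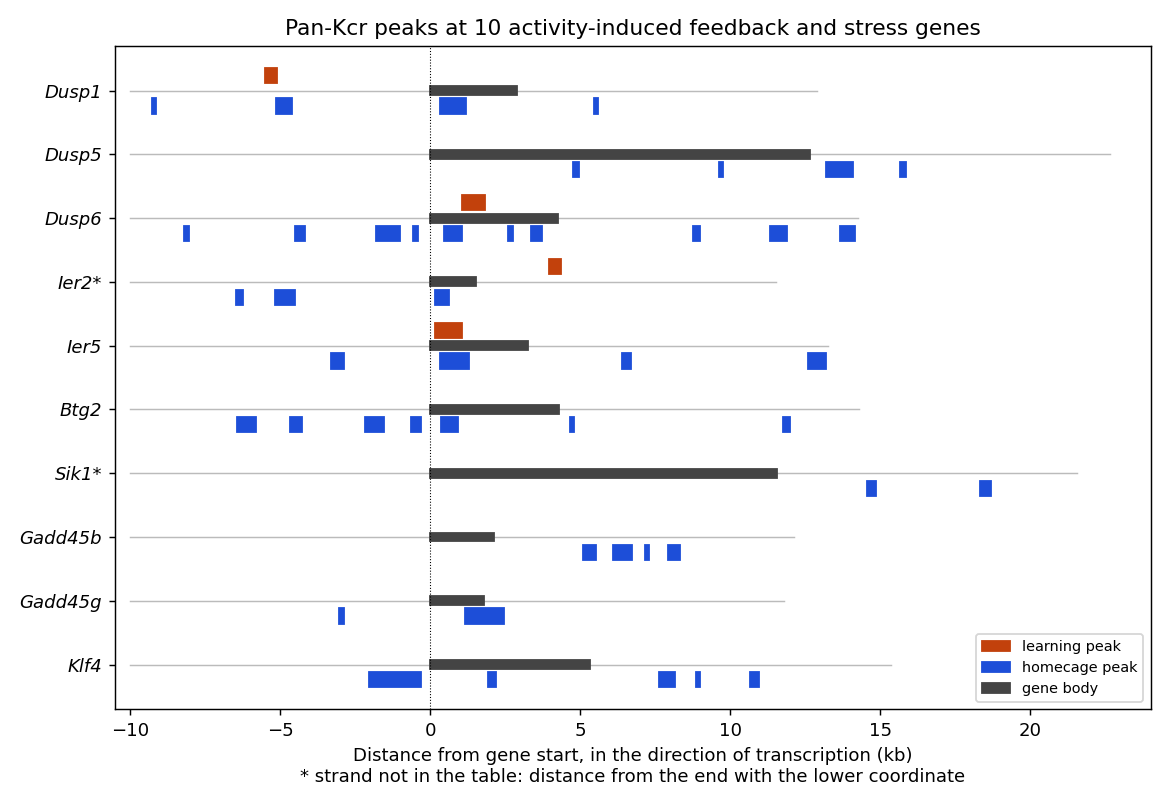
Peaks at the 10 genes, drawn to scale against the distance in kb from the gene start (for Ier2 and Sik1, marked *, from the end of lower coordinate), with gene bodies in grey, learning peaks in orange above and homecage peaks in blue below. The 4 learning peaks lie at Dusp1, Dusp6, Ier2 and Ier5, and each gene has between 2 and 10 homecage peaks.

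The stretch just before the gene start was free of peaks at each gene for which it could be placed. Promoter sequences from RefSeq (GRCm38.p6), 250 bases before to 50 bases after the start, were matched for 8 of the 10 genes, and Ier2 and Sik1 had no entry. None of the 8 promoters was overlapped by a peak of either list, where 4.62% of the 17492 protein-coding promoters were overlapped by a learning peak and 18.9% by a homecage peak. With 8 genes the upper end of the exact 95% interval is 36.9%, so this count does not stand apart from either share. The 250 bases upstream are shown for 4 genes, 5′ to 3′ on the gene's strand. Ier5 has the learning peak nearest to a start, and Klf4 has the widest homecage peak near a start. Dusp1 and Btg2 were added, after their values were seen, because their promoters hold a full cAMP response element (CRE), the site bound by CREB. Capitals mark the letters searched, on both strands, namely the CRE TGACGTCA, its core TGACG and the EGR site GCGNGGGCG.
Ier5 (chr1:155099637-155099886, minus strand): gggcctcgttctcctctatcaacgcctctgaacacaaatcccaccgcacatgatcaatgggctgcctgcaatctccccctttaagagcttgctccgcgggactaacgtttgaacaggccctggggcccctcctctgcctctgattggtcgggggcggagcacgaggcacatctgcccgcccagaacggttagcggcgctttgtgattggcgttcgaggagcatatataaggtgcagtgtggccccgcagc
Klf4 (chr4:55532476-55532725, minus strand): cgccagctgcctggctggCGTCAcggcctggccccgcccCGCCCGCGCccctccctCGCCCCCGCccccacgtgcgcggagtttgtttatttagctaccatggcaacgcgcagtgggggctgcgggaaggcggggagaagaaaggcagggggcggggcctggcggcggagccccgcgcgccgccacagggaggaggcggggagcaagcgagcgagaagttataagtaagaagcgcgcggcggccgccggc
Dusp1 (chr17:26508473-26508722, minus strand): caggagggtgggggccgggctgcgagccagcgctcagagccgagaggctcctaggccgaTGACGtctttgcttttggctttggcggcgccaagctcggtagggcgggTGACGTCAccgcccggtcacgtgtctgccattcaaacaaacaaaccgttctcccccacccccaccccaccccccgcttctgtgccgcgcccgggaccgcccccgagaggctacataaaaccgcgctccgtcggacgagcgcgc
Btg2 (chr1:134079156-134079405, minus strand): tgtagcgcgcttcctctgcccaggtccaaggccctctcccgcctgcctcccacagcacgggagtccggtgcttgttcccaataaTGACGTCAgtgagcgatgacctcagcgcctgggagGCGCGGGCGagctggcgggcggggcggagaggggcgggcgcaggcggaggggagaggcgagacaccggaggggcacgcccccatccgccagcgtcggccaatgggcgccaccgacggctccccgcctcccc

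The nearest homecage peak edge lay 307 bp upstream of the Klf4 start and 287 bp upstream of the Btg2 start, beyond the letters printed. At Ier5 and Dusp1 it lay inside the gene, 315 and 325 bp past the start. A full CRE was found in 2 of the 8 promoters, at positions -166 to -159 of Btg2 and -143 to -136 of Dusp1 counted from the start, against 2.33% of all promoters and 3.19% of the GC-richest of 3 near-equal groups, which holds both genes. The core TGACG, which a full CRE holds on each strand, was found in 4 of 8, adding Dusp5 and Klf4, against 23.8% of all and 32.9% of that GC-richest group. Klf4, Btg2 and Gadd45b, all in the GC-richest group, held an EGR site, against 7.46% of all promoters and 18.7% of that group. The serum response element (CArG box) was found in Dusp5 alone, at 2 places, against 1.55% of all promoters and 1.1% of the GC-richest group. The AP-1 site TGANTCA was found in none of the 8, against 7.03% of all and 3.09% of the GC-richest group. TATAAA was found in Gadd45b and Gadd45g, both in that group, against 13.3% of all and 3.19% of the group. These matches describe letters in a window, and no binding was measured. The motifs were chosen with earlier results of these data known. No interval was computed for these counts, and enrichment was not tested.

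The 8 promoters were rich in G and C. Their median GC content was 64.5%, against 56.3% for all 17492, and their median number of CG dinucleotides was 26 against 13. Across all protein-coding genes, peaks near the start were more frequent where the promoter was GC-rich. In the lowest of 3 near-equal groups by GC, 4.84% of starts had a learning peak within 1 kb and 33.6% a homecage peak. In the middle group the shares were 12.8% and 48.2%, and in the highest group 29.5% and 67.9%. Of the 8 genes, 6 fell into the highest group, from Gadd45b at 62% GC to Klf4 at 74.3%, and none of these 6 had a learning peak within 1 kb of the start. Homecage peaks were there at 3 of these 6, Btg2, Klf4 and Dusp1. The exact intervals for 6 genes, 0 to 45.9% for learning and 11.8 to 88.2% for homecage, include the shares of the group. The only learning peak within 1 kb of a start, at Ier5, belonged to a promoter of 59% GC in the middle group.

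Within 1 kb of the start, 1 of the 8 genes had a learning peak (12.5%, exact 95% interval 0.316 to 52.7%), against 15.6% of the 17492 genes. A homecage peak was there at 5 of 8 (62.5%, 24.5 to 91.5%), Dusp1, Dusp6, Ier5, Btg2 and Klf4, against 49.7%. In the whole lists the share of starts under a peak was highest 300 bp downstream of the start, at 8.12% for learning peaks and 23.5% for homecage peaks. At 4 to 5 kb from the start the mean was 0.287% and 5.56%, so the highest point was 28.3 and 4.23 times that level. The base 500 bp downstream, a position chosen after the values were seen, was covered by a homecage peak at 4 of the 8 genes, against 19.3% of all starts. They were Dusp1, Dusp6, Ier5 and Btg2, and Ier5 alone was also covered there by a learning peak, against 5.49% of all starts. The exact 95% intervals for these counts, 15.7 to 84.3% and 0.316 to 52.7%, include the shares of all starts.

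**Figure D2:**
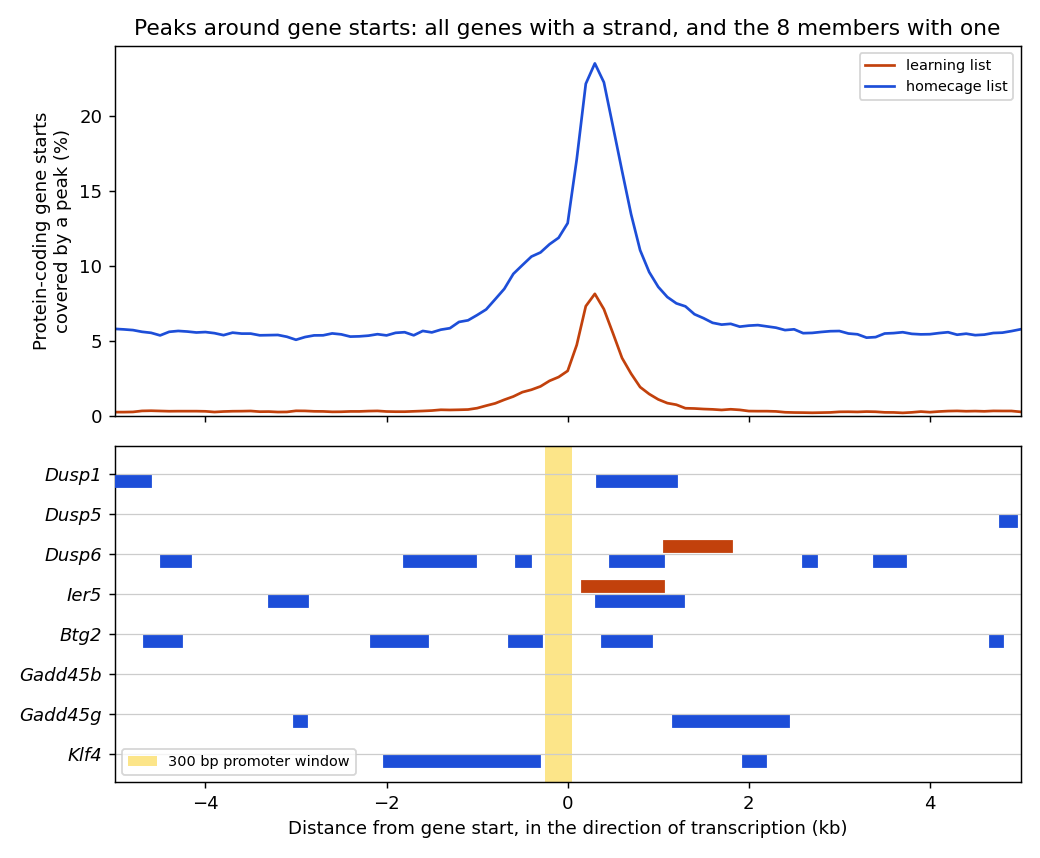
Share of 17492 protein-coding gene starts covered by a peak at each distance from the start (top, %), and the peaks of the 8 genes with a known strand on the same axis in kb (bottom; learning orange, homecage blue). Both curves are highest 300 bp downstream, and no peak of the 8 genes touches the yellow promoter window.

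Among the phosphatases, Dusp1 (chromosome 17, 26505591 to 26508472) encodes a nuclear enzyme that inactivates ERK, JNK and p38. It had 1 learning peak of 393 bp at chr17:26513581-26513973, 5109 bp upstream of the start. A homecage peak of 526 bp at chr17:26513069-26513594 met it, but the overlap was only 14 bp. The widest of its 4 homecage peaks, 887 bp at chr17:26507261-26508147, lay inside the gene, from 325 to 1211 bp past the start, and had no learning partner. The other 2 homecage peaks were 147 bp each, the smallest width in that list, and 10.4% of homecage peaks were that narrow. The downstream one of them also lay in the lncRNA gene Gm34455.

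Dusp6 (chromosome 10, 99263231 to 99267489) encodes the cytoplasmic ERK phosphatase and had the most homecage peaks of the list, 10. Of the protein-coding genes up to 12665 bp, 1.83% had as many in their window. That share belongs to the highest of the 10 genes and was not tested. At Sik1 and Gadd45g such shares were 81.9%. Of the 10 homecage peaks, 4 lay upstream, 3 inside Dusp6, where that of 363 bp also overlapped the lncRNA gene Gm34921, and 3 downstream. At Dusp6 they were 147 to 790 bp wide. Its learning peak, 750 bp at chr10:99264297-99265046, lay inside the gene from 1066 to 1815 bp past the start, and 4.86% of learning peaks were as wide. The closest homecage peak, 588 bp at chr10:99263702-99264289, ended 7 bp before it. The pair lay close together without sharing a base, so the rule of 1 bp did not count it as shared. Dusp5 (chromosome 19, 53529145 to 53541809), the nuclear ERK phosphatase, had no learning peak, and the nearest one lay 32412 bp from the gene. Its 4 homecage peaks were 147 to 894 bp wide, and the widest, chr19:53542332-53543225, began 523 bp beyond the 3′ end. None of them was within 1 kb of the Dusp5 start.

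Ier5 (chromosome 1, 155096367 to 155099636), an immediate-early gene whose product has been linked to heat shock factor activity, was the one gene with matching peaks of both lists next to its start. The learning peak, 898 bp at chr1:155098578-155099475, covered 161 to 1058 bp past the start. The homecage peak, 973 bp at chr1:155098349-155099321, covered 315 to 1287 bp past the start, and the pair shared 744 bp. The learning peak was the widest of the 4, with 2.59% of learning peaks as wide, and 3.37% of homecage peaks were as wide as its partner. The other 3 homecage peaks at Ier5 were 313, 433 and 608 bp wide and lay 2871 bp upstream to 9309 bp beyond the gene. Ier2 (chromosome 8, 84661331 to 84662852), a nuclear immediate-early protein gene and the shortest of the list at 1522 bp, had its strand in no table used here. Its learning peak, 388 bp at chr8:84665292-84665679, lay 2440 bp beyond the end of higher coordinate. The nearest of its 3 homecage peaks, 453 bp at chr8:84661509-84661961, was inside the gene and 3330 bp from the learning peak. The protein-coding gene Nacc1 also reaches into this window, but no peak counted here overlapped it.

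Btg2 (chromosome 1, 134074865 to 134079155) had 7 homecage peaks and no learning peak, and 10.3% of genes up to 12665 bp had as many homecage peaks. A pair flanked the start, 551 bp at chr1:134078228-134078778 inside the gene and 360 bp at chr1:134079442-134079801 upstream. The upstream peak began 287 bp from the start, beyond the printed promoter that holds the CRE. The widest was 653 bp, 5787 bp upstream, and 1 of the 7 lay in the lncRNA gene Gm31974. The nearest learning peak lay 11035 bp from the gene, just outside the window. Sik1 (chromosome 17, 31844248 to 31855804) had its nearest learning peak 185607 bp away. Its 2 homecage peaks were 297 and 350 bp wide and lay 3012 and 6779 bp beyond its end of higher coordinate. Homecage peaks covered 2.05% of the Sik1 window, the lowest share of the 10, against 16.1% at Dusp6.

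The Gadd45 genes differed in where their homecage peaks lay, and neither had a learning peak in its window. Gadd45g (chromosome 13, 51846675 to 51848475) had a homecage peak of 1284 bp at chr13:51847838-51849121 that crossed its 3′ end, and 1.11% of homecage peaks were as wide. Its other peak was 147 bp wide, 2880 bp upstream. Gadd45b (chromosome 10, 80930091 to 80932204) had 4 homecage peaks of 147 to 650 bp, all downstream, beginning 2984 to 5808 bp past the 3′ end. No homecage peak lay inside Gadd45b or within 1 kb of either end. The nearest learning peaks were 53381 bp from Gadd45b and 53506 bp from Gadd45g.

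Klf4 (chromosome 4, 55527137 to 55532475), a zinc finger transcription factor of the Krüppel-like family, had the widest peak of the list. This homecage peak, 1721 bp at chr4:55532782-55534502, spanned positions -2027 to -307 from the start, and 0.309% of homecage peaks were as wide. It also lay in Gm12506, a neighbouring lncRNA gene, so it cannot be assigned to either gene alone. The other 4 homecage peaks at Klf4 were 147 to 524 bp wide, 1 inside the gene and 3 downstream. No learning peak was in the window, and the nearest lay 11910 bp from the gene.

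**Figure D3:**
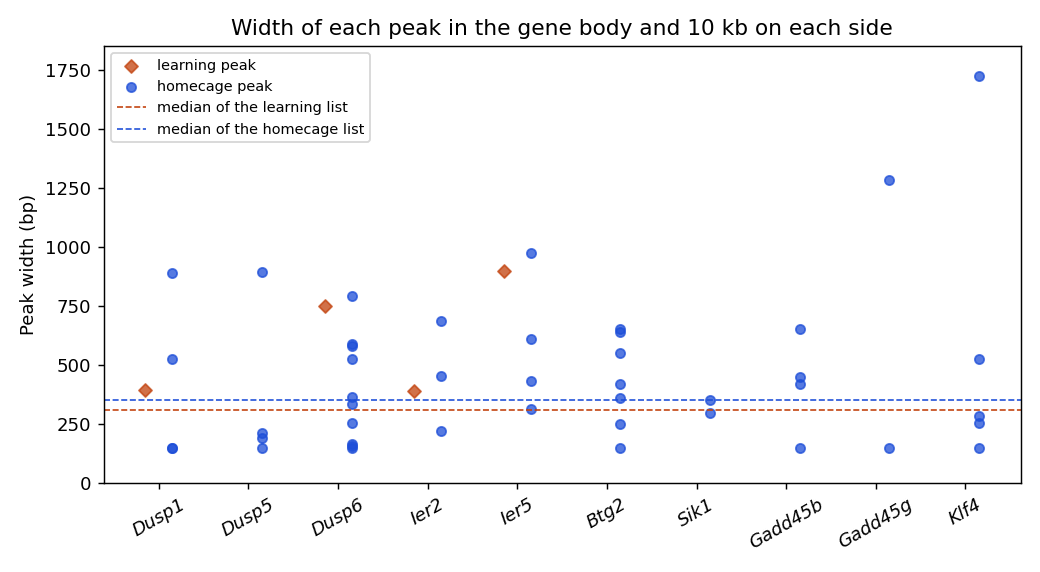
Width in bp of every peak counted at the 10 genes (learning diamonds, homecage circles), with dashed lines at the medians of the whole lists, 306 and 351 bp. All 4 learning peaks lie above their list's median, and the homecage peaks range from 147 bp to the 1721 bp peak at Klf4.

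The 4 learning peaks were 388, 393, 750 and 898 bp wide, and 2 of them reached 500 bp, as did 15.6% of the learning list. The 45 homecage peaks had a median width of 363 bp, and 17 of them (37.8%) reached 500 bp, against 24.8% of the homecage list. Of the learning peaks, 2 of 4 overlapped a homecage peak by at least 1 bp, those at Dusp1 and Ier5 (50%, exact 95% interval 6.76 to 93.2%). In the windows of all protein-coding genes, 47.4% of learning peaks did. Of the homecage peaks, 2 of 45 overlapped a learning peak (4.44%, 0.543 to 15.1%), against 2.69% in all windows. Peaks overlapping the gene body were found at 8 of 10 genes in the homecage list (exact interval 44.4 to 97.5%), against 53.9% of genes up to 12665 bp. In the learning list 2 of 10 had one (2.52 to 55.6%), against 10.7%. All of these intervals include the share measured in the other genes.

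Related genes were counted in the same way to place the 10 among their families. The 21 relatives were other Dusp genes and Ier3, Ier5l, Btg1, Btg3, Tob1, Tob2, Sik2, Sik3, Gadd45a and other Klf genes. Of these, 14 had a learning peak, against 35.4% of all protein-coding genes. All 21 had a homecage peak, as did 93.8% of all protein-coding genes. Of the 7 other Dusp genes 5 had a learning peak, and both Ier relatives, both Sik relatives, 2 of 4 Btg and Tob genes and 3 of 5 Klf genes had one. Gadd45a had none, as with Gadd45b and Gadd45g. Many relatives are longer, and among the 12 no longer than 12665 bp 8 had a learning peak (66.7%, exact 95% interval 34.9 to 90.1%). That interval lies above the 23.8% of all protein-coding genes of these lengths, but the list was chosen with earlier results of these data known and was not tested. The widest learning peaks of the relatives lay at Dusp7 (1086 bp, over a homecage peak of 2120 bp) and Tob1 (743 bp). Dusp7 is an ERK phosphatase and Tob1 an antiproliferative relative of Btg2, and both peaks overlapped the gene body. The widest homecage peak, 3348 bp, lay 4969 bp upstream of Klf9, followed by that of Dusp7.

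Of 20 other inducible inhibitor and stress genes, 12 had a learning peak, against 35.4% of all protein-coding genes. All 20 had a homecage peak, as did 93.8% of all protein-coding genes. Among the 13 short ones 7 had a learning peak (53.8%, 25.1 to 80.8%), an interval just above the 23.8% of all short genes, with the same limit on the choice of the list. Ddit4, an inhibitor of mTORC1 signalling, had 4 learning peaks, the widest of 854 bp lying 6326 bp downstream of the gene. Spred1, an inhibitor of Ras signalling, had a learning peak of 783 bp that overlapped the gene body and a homecage peak of 1158 bp. Spred1 also had a homecage peak of 1543 bp. Spred2, its relative, had a homecage peak of 1299 bp. Hspa1a and Hspa1b are near-identical neighbours that can share reads and share part of their windows, so their single learning peak each is uncertain. Both are among the 7 short genes, so the interval above 23.8% rests in part on them. It was not recomputed with the pair counted once.

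Among the Fos, Jun and Egr transcription factor genes, 7 of 11 had a learning peak, against 35.4% of all protein-coding genes. Of the 10 short ones 6 did (60%, 26.2 to 87.8%), an interval that also lies above 23.8%, again for a list chosen with earlier results known. Their widest learning peaks were 832 bp near Fosl1 and 707 bp overlapping the Jund gene body. Upstream of Jund and Jun lay their widest homecage peaks, of 1376 and 1370 bp. Of Nr4a1, Nr4a2, Nr4a3, Npas4, Arc and Bdnf, 2 of 6 had a learning peak (33.3%, 4.33 to 77.7%). This interval includes the 35.4% of all protein-coding genes. The 2 learning peaks overlapped the gene bodies of Nr4a2 (490 bp) and Nr4a1 (218 bp). In that list the widest homecage peaks overlapped the gene bodies of Nr4a3 (1015 bp) and Arc (913 bp). Whether such a peak crossed a gene end was not recorded for genes outside the 10. The share of 40% for the 10 feedback and stress genes was below that of both feedback lists and of the Fos, Jun and Egr list, but the exact intervals overlap widely and the lists were not compared by a test.

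**Figure D4:**
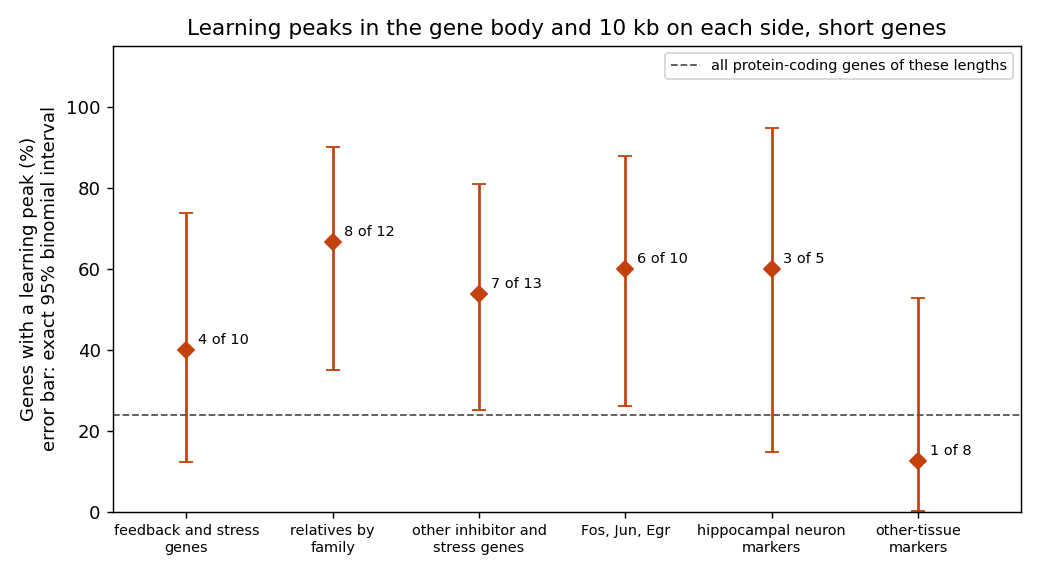
Share of genes (%) up to 12665 bp long with a learning peak in the gene body or within 10 kb, by list, with exact 95% binomial intervals and the number of genes. The dashed line is the 23.8% of all protein-coding genes of these lengths. The list of Nr4a genes, Npas4, Arc and Bdnf is left out because it has 1 gene of that length.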

How the data were processed

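Of 12 libraries in the series, 2 were analysed, the pan-Kcr ChIP libraries of the learning and homecage mice, grouped by title. The deposited files list called peaks (chromosome, start, end and name). Trimmomatic, BWA, MACS2 and mm10 are named, without roles, per the submitters' processing notes, and the peak names say broad peaks at p 0.01. Filters and any use of input are not given in the sources used here. Strengths and read numbers are not in these lists, so depth and precision are unknown.

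Positions were made 1-based. Genes came from RefSeq GRCm38.p6, and the start is the most upstream one in the promoter table. Peaks were counted in the gene body and 10 kb on each side, and shared peaks overlap by at least 1 bp. Intervals are exact (Clopper-Pearson) at 95%, treat genes or peaks as independent and cover counting error only. The 10 genes, the lists (88 genes, all matched) and the motifs were chosen with earlier results of these data known. From each other list, the genes with the 2 widest peaks in each library are named. Alternatives were narrower windows, a 500 bp minimum width, merging of peaks closer than 1 kb, peak centres, a 50% overlap and a shortened homecage list. Functions were tested on simulated lists. Python 3.11.15, matplotlib 3.10.9, scipy 1.17.1, pandas 2.3.3 and numpy 2.4.6 were used.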

Additional observations from a re-analysis of the deposited data

How the results depend on the processing

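No paired analysis was possible because there was 1 ChIP library per condition, which also means that no library could be left out. Stricter peak strengths were not run because these lists carry none. Of 37 recomputed counts, 22 stayed within 1.5 times the reported count and 15 did not. With the gene body alone, the counts were 2 learning peaks at 2 of 10 genes (24.8% of all protein-coding genes), 1 of them shared, and 11 homecage peaks. With 3 kb on each side there were 24 homecage peaks and 1 shared learning peak, since the peak upstream of Dusp1 fell outside. A 500 bp minimum left 2 learning peaks at 2 genes, Dusp6 and Ier5, with 1 shared, and 17 homecage peaks, while 8.23% of all protein-coding genes kept a learning peak. An overlap of 50% of both peaks left 1 shared learning peak, at Ier5. Shortening the homecage list to its widest peaks, as many as the learning list holds, left 5 homecage peaks at 5 genes (31.2% of all protein-coding genes) and 1 shared learning peak. Widening the start window to 3 kb gave 2 of 8 genes with a learning peak, Ier5 and Dusp6, against 17.8% of all starts.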

Other observations

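Marker genes gave a few values outside the comparisons above. Neurod2, a transcription factor gene of excitatory neurons, had 3 learning and 13 homecage peaks in its window. Its widest learning peak, 878 bp, overlapped the gene body and a homecage peak of 593 bp. Prox1, a marker of dentate granule cells, had a learning peak of 508 bp lying 4239 bp upstream of the gene. Neurod6, Bcl11b, Wfs1 and Slc17a7 of the same marker list had no learning peak in their windows. The widest homecage peaks of the neuron markers were 1860 bp overlapping the Zbtb18 gene body and 1797 bp upstream of Neurod2. Among the genes of other tissues, Apoa1 had a learning peak of 635 bp overlapping the gene body. Myh6 had one of 603 bp downstream, and both lay over homecage peaks. The widest homecage peaks of that list were 1031 bp, 8148 bp upstream of Hba-a1, and 1013 bp, 427 bp upstream of Myh6. Expression was not measured in these lists.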
